A study of Mus musculus with 12 samples.

Results

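The genes described here encode the enzymes that make, recycle and use glutathione, the 2 proteins that sense and relay oxidative stress (NRF2 and KEAP1), and antioxidant genes that NRF2 is known to drive. The 10 genes were Nfe2l2, Keap1, Gclc, Gclm, Gss, Gsr, Gpx1, Txnrd1, Srxn1 and Osgin1. Every probe set annotated with exactly 1 gene symbol among them was taken, which gave 18 probe sets of 10 genes, out of 22626 tested probe sets and 12393 named genes. Whole liver RNA was measured on 12 Affymetrix 430A arrays, 3 per group. Each array held RNA pooled from 3 male mice aged 6 to 8 weeks, labelled C57BL/6 in every group. The 4 groups were POR-null mice fed quercetin, POR-null mice on the control diet, wild-type mice fed quercetin and wild-type mice on the control diet. POR is cytochrome P450 reductase, the electron donor of microsomal P450 enzymes, and quercetin is a plant flavonol. All mice first ate the soya-free powdered diet RM3 (E) for 14 days. For the last 24 h the quercetin groups received it with added quercetin at 6.2 g per kg, given as 7 mg per mouse. The labels do not say which promoter or cell type the deletion depends on. Por itself was not analysed here, which leaves the genotype labels without a check at the disrupted gene.

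NRF2, the product of Nfe2l2, is a transcription factor that KEAP1 binds in the cytoplasm and hands to a ubiquitin ligase for degradation. Electrophiles and oxidants modify cysteines of KEAP1, NRF2 then accumulates, pairs with a small MAF protein and binds antioxidant response elements near its target genes. Glutathione is made from glutamate, cysteine and glycine, first by glutamate-cysteine ligase, a complex of the catalytic subunit GCLC and the modifier subunit GCLM, and then by glutathione synthetase. The liver is a main site of glutathione synthesis, and hepatocytes use it for conjugation and for the reduction of peroxides.

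Promoter windows from RefSeq (GRCm38.p6) ran from 250 bases before to 50 bases after a start site of a gene. They were searched on both strands for the antioxidant response element core TGACNNNGC and for TGACTCA, the core bound by AP-1 type factors. Of all 32851 windows, 12.4% held the first and 5.2% the second. Among the genes described here 8 had a window, 10 windows in all. Gclc and Gsr had none and were not searched. The element core was present for 4 genes, namely Nfe2l2, Gclm, Srxn1 and Txnrd1 (1 of its 3 windows), and TGACTCA for 2, Srxn1 and Osgin1. Neither was present in the windows of Gss, Keap1 and Gpx1. Sequences of 3 genes are shown because their liver levels are compared in detail further on: Osgin1, which was lower in POR-null liver, Srxn1, whose probe sets did not give 1 direction, and Gclm, the partner subunit of GCLC. Each is 300 bases, 5′ to 3′ on the plus strand, with matches in capitals. A match is a description of letters and not a shown binding site. Other spellings of the element were not searched, so a gene without a match, such as Osgin1 for the element core, may still hold one. The Osgin1 window lies inside the gene, which begins at chr8:119425882, so the start there is an internal one. So does the Txnrd1 window with the core, at chr10:82858956-82859255 in a gene beginning at 82833951. The Gclm window spans the beginning of its gene at chr3:122245487, and its start site lies after that beginning. Distances below are from the start site of each window.
Osgin1, chr8:119436897-119437196, with TGACTCA 97 bases before the start: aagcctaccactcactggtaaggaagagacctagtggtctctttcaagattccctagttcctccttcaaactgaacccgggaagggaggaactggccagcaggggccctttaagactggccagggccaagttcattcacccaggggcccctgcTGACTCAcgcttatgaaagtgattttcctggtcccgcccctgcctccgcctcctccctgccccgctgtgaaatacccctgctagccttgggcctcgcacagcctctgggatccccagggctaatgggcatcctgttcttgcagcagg
Srxn1, chr2:152105274-152105573, with TGACTCA on the reverse strand 102 and 45 bases before the start, and the element core on the reverse strand at position 29 after it: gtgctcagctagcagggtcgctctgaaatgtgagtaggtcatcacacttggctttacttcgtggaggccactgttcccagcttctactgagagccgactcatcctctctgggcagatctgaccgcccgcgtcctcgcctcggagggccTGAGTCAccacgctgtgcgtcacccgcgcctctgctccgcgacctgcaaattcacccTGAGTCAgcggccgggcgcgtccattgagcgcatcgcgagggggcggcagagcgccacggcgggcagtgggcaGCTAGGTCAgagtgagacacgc
Gclm, chr3:122245307-122245606, with the element core on the reverse strand 134 bases before the start: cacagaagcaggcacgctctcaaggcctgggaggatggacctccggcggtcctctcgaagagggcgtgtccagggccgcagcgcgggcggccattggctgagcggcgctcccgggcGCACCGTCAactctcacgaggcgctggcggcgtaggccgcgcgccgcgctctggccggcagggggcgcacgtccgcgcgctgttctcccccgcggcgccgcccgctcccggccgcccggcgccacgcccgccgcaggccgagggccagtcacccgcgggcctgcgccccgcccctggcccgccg

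Deposited values were on a log2 scale, so a difference of 1 unit is a doubling of signal. Array medians lay between 5.93 and 5.99, and arrays of a group correlated with each other at 0.988 to 0.993 across probe sets. Hepatocyte genes were near the top of the scale on every array, with Alb at 13.4 to 13.7 and Ttr at 12.7 to 13.4. On principal component 1, which held 33.0% of the variance, POR-null and wild-type arrays lay apart. There POR-null control pool 3 lay nearest to wild type at 0.11, against up to 23.0 for the POR-null arrays and -23.7 to -6.11 for wild type. On the second component wild-type control pool 1 (12.1) stood apart from the other wild-type control pools (-17.7 and -16.2). It lay there among the wild-type quercetin arrays (8.14 to 16.9). Several values are also given without POR-null control pool 3 or without wild-type control pool 1. In whole liver, fewer cells of a type and less RNA per cell cannot be told apart.

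Loss of POR went with lower Gclc, at 46.2% and 54.2% of the wild-type level on its probe sets, and lower Osgin1, while Nfe2l2, Keap1, Gss and Gpx1 gave differences near 0. Averaged over both diets, 4 of the 18 probe sets passed an adjusted p of 0.05 in limma, 3 lower and 1 higher in POR-null liver, from 3 genes. That is 22.2% of these probe sets, against 7.58% of all probe sets (2.70% lower and 4.88% higher). The median difference over the 18 was -0.05, against -0.02 over all probe sets. Within the control diet 1 of 18 passed, lower (5.56%), against 1.16% of all (0.336% lower and 0.822% higher). Within the quercetin diet 2 of 18 passed, both lower (11.1%), against 2.33% of all (0.579% lower and 1.75% higher). All 3 of these calls were Gclc. At an unadjusted p below 0.05 there were 5 of the 18 on the control diet and 4 on the quercetin diet, against 15.8% and 17.0% of all probe sets.

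Groups were also compared for overlap between single arrays. On the control diet 4 of the 18 probe sets had every POR-null pool below every wild-type pool and 0 had it above, against 9.24% of all probe sets lower and 8.04% higher (17.3% in all). They were both Gclc probe sets, Gclm and Gsr 1421816_at. On the quercetin diet 4 lay below (both Gclc probe sets, Osgin1 and Srxn1 1419942_at) and 2 above (Srxn1 1426875_s_at and 1451680_at), against 13.0% lower and 11.9% higher (25.0% in all).

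Gclc (chr9:77754535-77794489 in GRCm38.p6) encodes the catalytic subunit that sets the rate of glutathione synthesis, and it was measured by a pair of probe sets. Probe set 1455959_s_at read 8.87, 8.59 and 8.97 in POR-null quercetin pools and 8.83, 9.15 and 9.46 in POR-null control pools. In wild type it read 9.54, 9.75 and 9.82 in quercetin pools and 10.33, 10.10 and 9.63 in control pools. Every POR-null array was below every wild-type array. Averaged over diets, it fell by 0.88 ± 0.12 (SE, 6 pools per genotype, limma adjusted p = 0.00106), to 54.2% of wild type, with a 95% confidence interval of -1.15 to -0.62.

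The other Gclc probe set, 1424296_at, read 8.23, 8.36 and 8.39 in POR-null quercetin pools and 8.57, 8.82 and 9.30 in POR-null control pools. Its wild-type values were 9.51, 9.73 and 9.58 in quercetin pools and 10.45, 9.79 and 9.31 in control pools. POR-null control pool 3 and wild-type control pool 3 nearly met, at 9.300 and 9.308. The average difference was -1.12 ± 0.16 (limma adjusted p = 0.00106, interval -1.45 to -0.78), or 46.2% of wild type. These were 2 of 18 probe sets whose genotypes did not overlap over all 12 arrays, both lower, against 3.14% of all probe sets (1.22% lower and 1.92% higher). Both Gclc probe sets kept the call in each of the 12 fits that left out 1 array, with differences of -1.25 to -0.97 for 1424296_at and -0.98 to -0.80 for 1455959_s_at.

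Within a single diet the Gclc calls rested on 3 pools against 3. On the control diet 1455959_s_at differed by -0.88 ± 0.18 (limma adjusted p = 0.0311) and 1424296_at by -0.95 ± 0.22 (adjusted p = 0.0542). The control-diet call was lost without wild-type pool 2 (adjusted p = 0.141), POR-null pool 1 (0.165) or POR-null pool 2 (0.0945). On the quercetin diet 1424296_at fell by 1.28 ± 0.22 (adjusted p = 0.00890) to 41.1% of wild type, and 1455959_s_at fell by 0.89 ± 0.18 (adjusted p = 0.0167) to 53.9%. In limma, the call of 1424296_at was narrowly lost without wild-type quercetin pool 2 and without POR-null quercetin pool 1 (adjusted p = 0.0502). That of 1455959_s_at was lost without wild-type quercetin pools 2 or 3 or POR-null quercetin pools 1 or 2 (adjusted p up to 0.0822).

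Gclm (chr3:122245487-122267215) encodes the modifier subunit, which raises the affinity of the ligase for glutamate. Its values were 9.79, 9.97 and 9.95 in POR-null quercetin pools and 9.93, 9.81 and 10.11 in POR-null control pools. Wild-type pools read 9.95, 10.20 and 9.96 with quercetin and 10.39, 10.23 and 10.21 without. The genotypes overlapped on the quercetin diet and not on the control diet. The average difference was -0.23 ± 0.07 (limma adjusted p = 0.0697), short of the threshold, and it passed without POR-null control pool 3 (-0.27, adjusted p = 0.0322).

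The difference between the 2 ligase subunits was read within each array, as 1455959_s_at minus the Gclm probe set, so that only its change between genotypes is interpreted. It ranged from -1.38 to -0.65 in POR-null pools and from -0.57 to -0.06 in wild-type pools, with no overlap. The mean difference between genotypes was -0.65 (exact permutation test within diet over 400 relabellings, two-sided p = 0.005, the smallest this design can give). Leaving out 1 array gave -0.73 to -0.58. Gclc was therefore lower relative to Gclm in POR-null liver, by 0.65 log2 units. This comparison was added after Gclc was seen to separate the genotypes, so its p is no support apart from that separation.

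**Figure D1:**
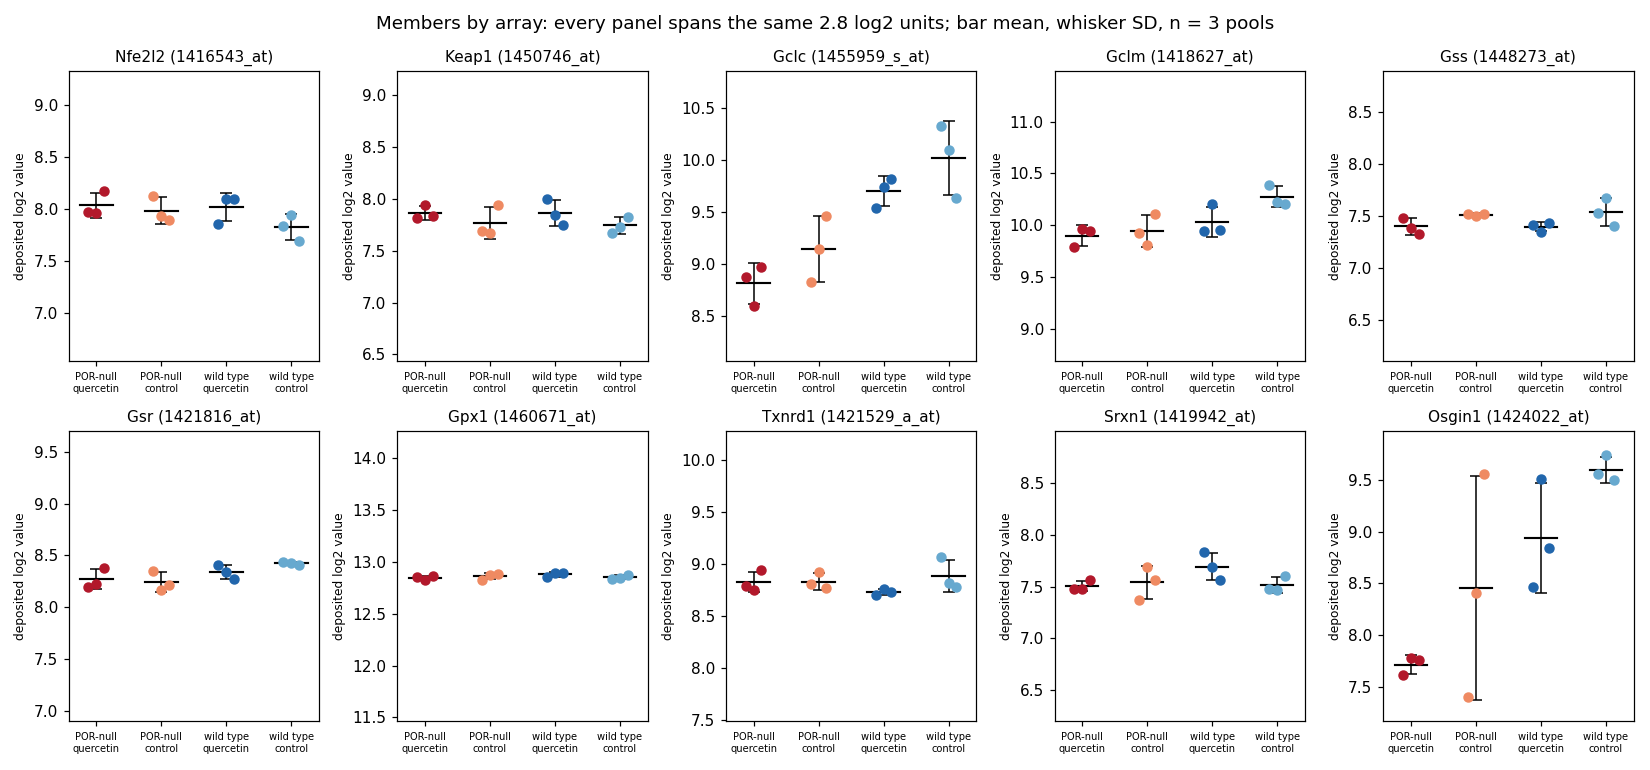
Deposited log2 signal (vertical axis) of the probe set with the highest mean of each gene, 1 point per array, with groups from left to right as POR-null quercetin, POR-null control, wild-type quercetin and wild-type control, with bars at group means and whiskers of 1 SD (n = 3 pools). All 6 POR-null points of Gclc lie below all 6 wild-type points, Osgin1 spreads from 7.40 to 9.56 in POR-null control liver, and Gpx1 stays within 0.068 units on all 12 arrays.

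Glutathione synthetase and the enzymes that recycle and use glutathione gave no call. Gss (chr2:155563181-155592810), the second enzyme of synthesis, averaged 7.40 ± 0.08 in POR-null quercetin and 7.51 ± 0.01 in POR-null control liver, against 7.40 ± 0.05 in wild-type quercetin and 7.54 ± 0.13 in wild-type control liver (SD, n = 3 each). Its genotype difference was -0.01, with a 95% confidence interval of -0.15 to 0.13. Gsr (chr8:33653238-33698162) reduces oxidised glutathione, and its probe sets differed by -0.13 ± 0.06 (1421816_at, limma adjusted p = 0.233) and 0.00 ± 0.08 (1421817_at). For 1421816_at the POR-null control pools, 8.35, 8.17 and 8.21, lay below the wild-type control pools, 8.43, 8.43 and 8.41.

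Gpx1 (chr9:108339080-108340342), the selenium enzyme that reduces hydrogen peroxide with glutathione, had the smallest range of these genes, 0.068 over 12 arrays, at a mean signal above 99.9% of probe sets. Whether signal that high still tracks the amount of RNA was not tested. It read 12.86, 12.83 and 12.86 in POR-null quercetin pools and 12.83, 12.87 and 12.88 in POR-null control pools. It read 12.85, 12.90 and 12.89 in wild-type quercetin pools and 12.84, 12.84 and 12.88 in wild-type control pools. The genotype difference was -0.01 ± 0.05 (limma adjusted p = 0.916), with an interval of -0.11 to 0.09.

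The genes of the regulators gave no call. Nfe2l2 (chr2:75675513-75704663) read 7.98, 7.96 and 8.17 in POR-null quercetin pools and 8.13, 7.93 and 7.89 in POR-null control pools. Wild-type pools read 7.86, 8.10 and 8.10 with quercetin and 7.84, 7.95 and 7.70 without, and the groups overlapped. The genotype difference was 0.09 ± 0.08 (limma adjusted p = 0.529, interval -0.08 to 0.25). Keap1 (chr9:21229730-21239332) differed by 0.01 ± 0.07 on 1450746_at and by -0.10 ± 0.07 on 1450747_at, neither past the threshold. NRF2 is controlled mainly through protein stability, which these arrays do not measure.

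Osgin1 (chr8:119425882-119446257), an oxidative stress-induced growth inhibitor, had the widest range of these genes. It read 7.62, 7.78 and 7.76 in POR-null quercetin pools and 7.40, 8.41 and 9.56 in POR-null control pools. It read 8.46, 9.51 and 8.84 in wild-type quercetin pools and 9.56, 9.74 and 9.50 in wild-type control pools. POR-null control pool 3 was as high as wild type, and the SD of that group was 1.08, against 0.09 in POR-null quercetin, 0.53 in wild-type quercetin and 0.12 in wild-type control liver. Averaged over diets Osgin1 fell by 1.18 ± 0.26 (limma adjusted p = 0.0144, interval -1.74 to -0.61), to 44.1% of wild type.

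The averaged Osgin1 call held in each of the 12 fits without 1 array, with an adjusted p of at most 0.0425 in limma, and was lost with a robust variance prior (adjusted p = 0.0764). Within one diet it was short of the threshold, at -1.14 ± 0.37 on the control diet (adjusted p = 0.152) and -1.22 ± 0.37 on the quercetin diet (adjusted p = 0.106). Without POR-null control pool 3 the control-diet difference was -1.69 (limma adjusted p = 0.00605). On the quercetin diet all 3 POR-null pools were below all 3 wild-type pools.

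Among the thioredoxin-linked genes, Srxn1 (chr2:152105524-152111376), sulfiredoxin, repairs over-oxidised peroxiredoxins and was read by 4 probe sets that did not give 1 answer. On 1451680_at it read 7.59, 7.51 and 7.50 in POR-null quercetin pools and 7.82, 7.55 and 7.35 in POR-null control pools. Wild-type pools read 7.19, 7.06 and 7.31 with quercetin and 7.06, 7.39 and 7.29 without. This probe set rose by 0.34 ± 0.09 averaged over diets (limma adjusted p = 0.0294, interval 0.15 to 0.52), or 1.26-fold. The call was lost in 7 of 12 fits without 1 array (adjusted p up to 0.0807), namely without wild-type quercetin pools 1 or 2, POR-null control pools 1 or 2, or any POR-null quercetin pool.

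The other Srxn1 probe sets gave 0.24 ± 0.12 (1426875_s_at, limma adjusted p = 0.268), -0.08 ± 0.07 (1419942_at, adjusted p = 0.542) and -0.00 (1425351_at, adjusted p = 0.989). On the quercetin diet the POR-null pools of 1419942_at lay below all wild-type pools, whereas those of 1451680_at and 1426875_s_at lay above them. Txnrd1 (chr10:82833951-82897724), cytosolic thioredoxin reductase, gave 0.02, -0.13 and -0.08 on 3 probe sets, none past the threshold. One of those, 1424487_x_at, had a mean signal of only 4.01, below the array medians.

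**Figure D2:**
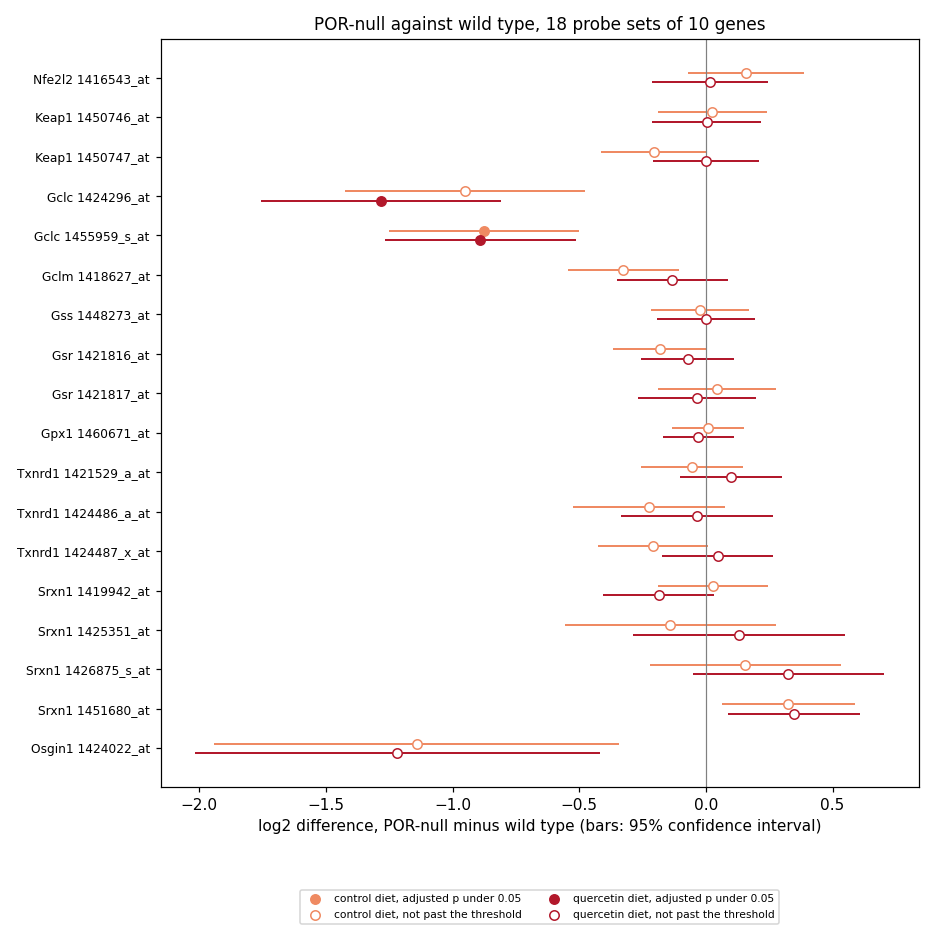
Difference in log2 signal, POR-null minus wild type (horizontal axis), on the control and on the quercetin diet, with 95% confidence intervals, for all 18 probe sets (vertical axis, by gene); filled points passed the adjusted threshold. Filled points belong to Gclc only, at -1.28 and -0.89 on the quercetin diet and -0.88 on the control diet, and the Osgin1 points (-1.22 and -1.14) have the widest intervals.

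Osgin1 and Gclc (1455959_s_at) were compared across arrays within each genotype, where the genotype difference plays no part. This was 2 relations of 6 arrays each, and diets are mixed within them. Arrays were permuted across diets, and both genes had lower means with quercetin in each genotype, which enters r and its p. The pair was chosen after seeing the data, so these p-values are no separate support for a link. In POR-null liver Pearson's r was 0.877 (exact permutation p = 0.0167, adjusted over 2 relations 0.0333) and Spearman's rho 0.657 (exact permutation p = 0.175, adjusted 0.175). Without the 2 arrays farthest from the median of Gclc (POR-null control pool 3 and POR-null quercetin pool 2), r was 0.989. Of the few arrays left, POR-null control pool 2 was well above the others for both genes (Gclc 9.15, Osgin1 8.41), so this r rests largely on it. In wild-type liver r was 0.594 (exact permutation p = 0.197, adjusted 0.197) and rho 0.771 (exact permutation p = 0.103, adjusted 0.175), and r without the 2 farthest arrays was 0.317. POR-null control pool 3 had the highest POR-null value of both genes.

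**Figure D3:**
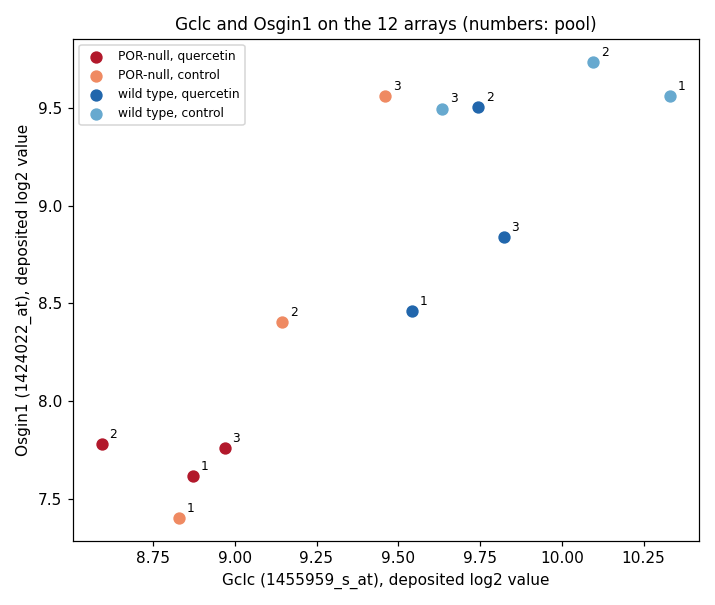
Osgin1 log2 signal (vertical axis) against Gclc 1455959_s_at log2 signal (horizontal axis), 1 point per array, with genotype and diet marked in the legend. Within POR-null liver r was 0.877 (n = 6) and within wild-type liver 0.594 (n = 6); the difference between them was not tested.

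Genes most like Gclc were sought by Pearson correlation with its 1455959_s_at values over all 12 arrays, among 12392 other genes, as a description in which the arrays share the genotype contrast. The closest 5 were Slc17a2 (r = 0.944), Mia3 (0.944), Herpud1 (0.944), Yy1 (0.943) and Inhbc (0.937). SLC17A2 is a phosphate transporter family member, MIA3 helps load large cargo for export from the endoplasmic reticulum, HERPUD1 acts in degradation of misfolded proteins there, YY1 is a transcription factor, and INHBC is an inhibin beta subunit made in liver. Each was lower in POR-null liver when averaged over diets in limma, from -0.83 for Slc17a2 to -0.28 for Yy1. That follows from picking genes like Gclc, which separated the genotypes, and is no separate result. Among the glutathione and NRF2 genes Osgin1 came closest (r = 0.875, rank 56), followed by Gclm (0.78, rank 276). Gsr stood at 0.561, Gss at 0.364, Gpx1 at 0.281, Txnrd1 at 0.225 and Srxn1 at 0.181, while Keap1 (-0.265) and Nfe2l2 (-0.345) ran the other way.

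The second question of the design was whether 24 h of quercetin moved these genes. None of the 18 probe sets passed in POR-null liver or in wild-type liver, and neither did any of all 22626 probe sets in limma (0.00%), where the lowest adjusted p was 0.446 in POR-null and 0.0783 in wild-type liver. At an unadjusted p below 0.05 there was 1 of the 18 in each genotype, against 6.99% of all probe sets in POR-null and 8.58% in wild-type liver. The median over the 18 was -0.01 in POR-null liver, equal to that of all probe sets, and -0.14 in wild-type liver, against -0.00 over all. Without wild-type control pool 1, 151 of all probe sets passed the adjusted threshold in wild-type liver, and 0 of the 18 did.

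Gclc 1424296_at gave the lowest quercetin value of the ligase probe sets in POR-null liver, -0.57 ± 0.22 (limma adjusted p = 0.657), or -0.37 without POR-null control pool 3. The POR-null quercetin pools, 8.23, 8.36 and 8.39, were all below the POR-null control pools, 8.57, 8.82 and 9.30. In wild-type liver its difference was -0.24 ± 0.22 (adjusted p = 0.792 in limma), and without wild-type control pool 1 it was 0.06, the opposite sign. On 1455959_s_at quercetin differed from control by -0.33 ± 0.18 in POR-null and -0.32 ± 0.18 in wild-type liver. Those values were -0.18 without POR-null control pool 3 and -0.16 without wild-type control pool 1. Osgin1 differed by -0.74 ± 0.37 in POR-null liver, which was -0.19 without POR-null control pool 3, and by -0.66 ± 0.37 in wild-type liver.

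Groups did not overlap between diets for 3 of the 18 probe sets in POR-null liver (Gclc 1424296_at and Gss lower and Keap1 1450747_at higher with quercetin), against 14.1% of all probe sets (7.52% lower and 6.62% higher). In wild-type liver this held for 2, Gclm and Txnrd1 1421529_a_at, both lower, against 11.8% of all (6.09% lower and 5.67% higher). Averaged over genotypes, both Gclc probe sets and Osgin1 had an unadjusted p below 0.05 (limma; 1424296_at -0.41 ± 0.16, 1455959_s_at -0.33 ± 0.12, Osgin1 -0.70 ± 0.26), against 9.19% of all probe sets. Their adjusted p lay at 0.457, 0.451 and 0.444, and Osgin1 averaged -0.42 without POR-null control pool 3. Without wild-type control pool 1 the Gclc averages were -0.26 (1424296_at) and -0.25 (1455959_s_at). Nfe2l2 differed by 0.05 in POR-null and 0.19 ± 0.11 in wild-type liver. Gclm differed by -0.05 ± 0.10 in POR-null liver, which was 0.03 without POR-null control pool 3, and by -0.24 ± 0.10 in wild-type liver (limma adjusted p = 0.56 in wild type).

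The quercetin response was also compared between the genotypes directly. The interaction term passed for 0 of 18 probe sets, and for 0.00% of all, with a lowest adjusted p of 0.828 among the 18 in limma and of 0.254 over all. At an unadjusted p below 0.05 there were 0 of the 18, against 6.17% of all. Taken as the POR-null response minus the wild-type response, it was -0.33 ± 0.31 (1424296_at) and -0.02 ± 0.25 (1455959_s_at) for Gclc and -0.08 ± 0.53 for Osgin1.

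**Figure D4:**
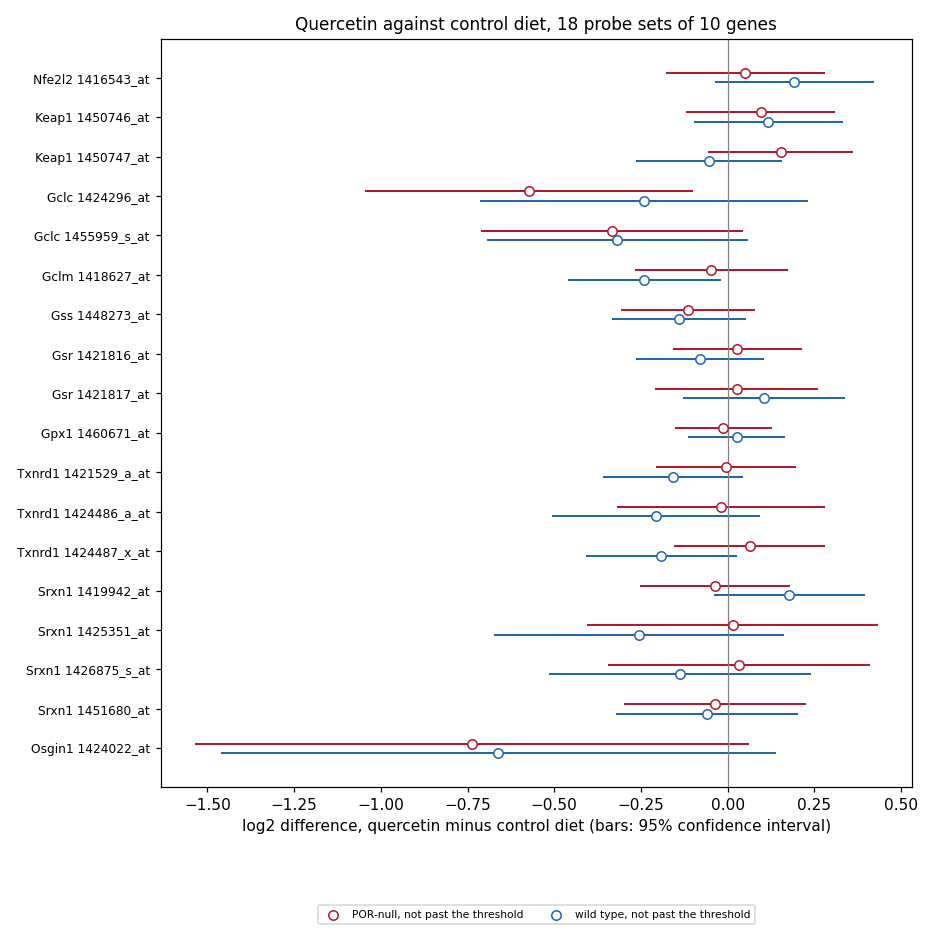
Difference in log2 signal, quercetin minus control diet (horizontal axis), with 95% confidence intervals, for each of the 18 probe sets (vertical axis) in POR-null and in wild-type liver. No probe set passed the adjusted threshold in either genotype, and the widest intervals belong to Osgin1 (-0.74 ± 0.37 in POR-null and -0.66 ± 0.37 in wild-type liver, SE).

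Other genes of the pathway were taken from lists that extend it, with 1 probe set per gene. Of 35 other NRF2 target genes 29 were measured, and 7 rose and 2 fell in POR-null liver averaged over diets, against 5.08% of all genes higher and 2.86% lower. The median over the 29 was 0.13, against -0.02 over all genes. The 2 largest rises were glutathione S-transferases, Gstm3 (2.21 ± 0.27) and Gstm2 (1.49 ± 0.18), whose probe sets may also read related transcripts. Pgd, of the NADPH-making pentose phosphate pathway, rose by 0.72 ± 0.14, the conjugate exporter gene Abcc3 by 0.57 ± 0.11, and the ferritin heavy chain gene Fth1 by 0.30 ± 0.05. Gstp1 fell by 0.72 ± 0.11 and Gsta4 by 0.61 ± 0.08, both also transferase genes. Gsta2 (0.30 ± 0.08) and Txn1 (0.25 ± 0.07) passed as well, but kept the call in only 3 and 5 of 12 fits without 1 array, with adjusted p up to 0.0952 and 0.0920 in limma.

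Nqo1 and Hmox1, often used as readouts of NRF2, did not pass. Nqo1, the quinone reductase gene, averaged 5.59 ± 0.14 in POR-null quercetin and 5.43 ± 0.20 in POR-null control liver, against 5.44 ± 0.13 in wild-type quercetin and 5.32 ± 0.05 in wild-type control liver (SD, n = 3 each). All these means lay below the array medians of 5.93 to 5.99. The genotype difference of Nqo1 was 0.13 ± 0.08 (limma adjusted p = 0.384). Hmox1, heme oxygenase, differed by 0.03 ± 0.17 (adjusted p = 0.942 in limma). On the control diet alone, Gstm2 rose by 1.28 ± 0.25 and Gsta4 fell by 0.89 ± 0.11, which was 1 gene in each direction, against 0.920% of all genes higher and 0.323% lower. The Gstm2 call was lost without wild-type control pools 2 or 3 or POR-null control pool 2 (limma adjusted p up to 0.127). On the quercetin diet 6 rose and 1 fell, against 1.86% and 0.629% of all genes. Pgd, Gstm2 and Gstm3 (higher) and Gstp1 (lower) kept that call in each of 6 fits without 1 array, whereas Gsta2 kept it in 2, Abcc3 in 1 and Fth1 in 0 (limma adjusted p up to 0.177).

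Of 18 genes for partners and regulators of NRF2 and KEAP1, 16 were measured, and 1 rose and 2 fell averaged over diets, against 5.08% and 2.86% of all genes. Of the 16, 14 were below 0, with a median of -0.11, against -0.02 over all genes. Dpp3, whose product binds KEAP1, rose by 0.37 ± 0.07 on its brightest probe set, a call lost with its probe sets averaged (0.18, limma adjusted p = 0.0773). The small MAF genes Mafg and Maff fell by 0.52 ± 0.08 and 0.33 ± 0.08. Mafg averaged 7.99 ± 0.08 in POR-null quercetin and 7.99 ± 0.29 in POR-null control liver, against 8.43 ± 0.09 in wild-type quercetin and 8.60 ± 0.02 in wild-type control liver. Maff averaged 5.92 in POR-null quercetin, 5.94 in POR-null control and 5.89 in wild-type quercetin liver, against 6.64 in wild-type control liver. All but the last lay near or below the array medians of 5.93 to 5.99. The averaged Maff fall thus came from wild-type control liver alone, and on the quercetin diet POR-null liver was not lower. The averaged Maff call held in 5 of 12 fits without 1 array, with adjusted p up to 0.0599 in limma. On the control diet Maff fell by 0.69 ± 0.12, a call lost without POR-null control pools 1 or 2 (limma adjusted p up to 0.0623). Mafg fell by 0.61 ± 0.12 there, lost without those pools or wild-type control pools 2 or 3 (up to 0.148).

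Of 30 genes that supply amino acids for glutathione or use it, 25 were measured, 4 rose and 1 fell, against 5.08% of all genes higher and 2.86% lower, with a median of 0.00, against -0.02 over all genes. The risers were Gpx7 (0.58 ± 0.09) and Gpx4 (0.57 ± 0.10), both peroxidase genes, Cth (0.49 ± 0.11), which releases cysteine in transsulfuration, and Mat1a (0.36 ± 0.07), which makes S-adenosylmethionine. Cbs, the enzyme before CTH in that route, fell by 0.48 ± 0.08. Gpx7 had group means of 5.06 to 5.71, below the array medians of 5.93 to 5.99. Of 22 thioredoxin and peroxiredoxin genes 19 were measured, and 2 rose and 2 fell, against the same 5.08% and 2.86% of all genes, with a median of 0.03. Prdx3, the mitochondrial peroxiredoxin gene, rose by 0.57 ± 0.08 and Txn1 as above, whereas Prdx4 of the endoplasmic reticulum fell by 0.41 ± 0.08 and Sesn2 by 0.34 ± 0.07. With quercetin no gene of any of these lists passed in either genotype. Of the 29 other NRF2 targets 12 were below 0 in POR-null liver (median 0.02, against -0.01 over all genes) and 23 in wild-type liver (median -0.15, against -0.00 over all genes).

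**Figure D5:**
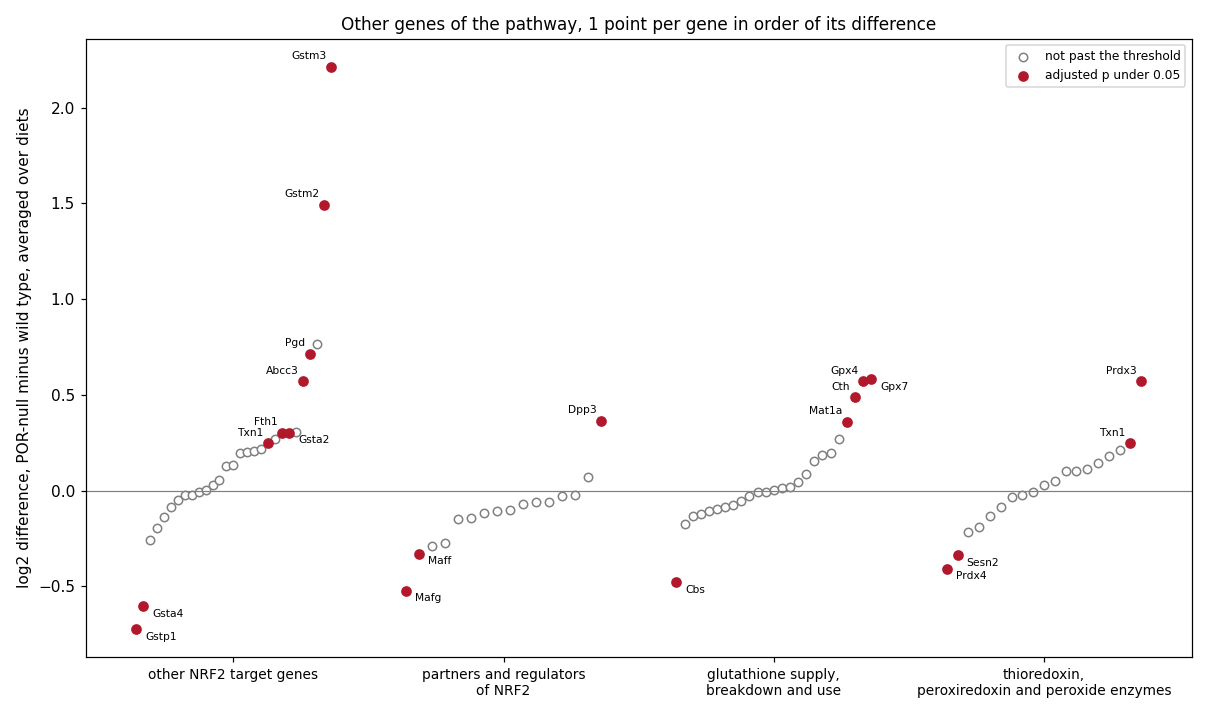
Difference in log2 signal, POR-null minus wild type averaged over diets (vertical axis), 1 point per measured gene in order of its difference, for 4 lists of genes around NRF2 and glutathione (horizontal axis), with filled points past the adjusted threshold. Among other NRF2 targets 7 genes passed above 0 and 2 below, from Gstm3 at 2.21 to Gstp1 at -0.72.

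Markers of the cell types that whole liver can hold were read beside these results, averaged over diets, where 5.08% of all genes were higher and 2.86% lower, with a median of -0.02. Of 15 macrophage and Kupffer cell markers 14 were measured, and 4 of them (Cd5l, Mpeg1, C1qa and Lyz2) rose in POR-null liver, with a median of 0.38. Their mean log2 level was 7.57 to 7.77 in POR-null quercetin and 7.46 to 7.77 in POR-null control liver, against 7.18 to 7.90 in wild-type quercetin and 6.96 to 7.41 in wild-type control liver. Of 9 measured hepatocyte markers 8 were below 0 and 1 (Hnf4a) passed, lower, with a median of -0.10. Their mean log2 level was 12.42 to 12.69 in POR-null quercetin and 12.44 to 12.63 in POR-null control liver. It was 12.72 to 12.74 in wild-type quercetin and 12.58 to 12.69 in wild-type control liver. Of 12 stellate cell and matrix markers 1 (Sparc) rose. None passed in limma among 9 endothelial, 5 cholangiocyte, 6 lymphocyte and 3 red blood cell markers.

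Exocrine pancreas markers also gave no call, but all 10 measured were above 0 in POR-null liver averaged over diets (median 0.47) and on the quercetin diet (median 1.00), and 4 of 10 on the control diet (median -0.07). Their mean log2 level spanned 6.87 to 9.71 in POR-null quercetin and 6.56 to 8.30 in POR-null control liver, against 6.26 to 8.20 in wild-type quercetin and 6.66 to 8.48 in wild-type control liver. With quercetin all 10 were above 0 in POR-null liver (median 0.68) and below 0 in wild-type liver (median -0.39).

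Control probe sets give a 3′ minus 5′ difference as a sign of RNA integrity. For actin it was 0.83 to 1.02 in POR-null quercetin and 0.91 to 1.01 in POR-null control liver, against 0.79 to 0.88 in wild-type quercetin and 0.84 to 1.00 in wild-type control liver. For the transferrin receptor it was 1.20 to 1.37 in POR-null quercetin and 1.17 to 1.34 in POR-null control liver, against 1.06 to 1.28 in wild-type quercetin and 0.99 to 1.13 in wild-type control liver. The part of these markers and RNA signs in the results was not tested.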

How the data were processed

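Values were used as the authors deposited them, on a log2 scale from 2.57 to 14.2. MAS5 and RMA are named per the submitters' processing notes, without version or role, and background correction is not given in the sources used here. No further normalization was applied. Of 22690 probe sets, 64 AFFX controls were left out and 22626 were tested. The platform annotation gave 1 symbol to 20380, several to 691 and none to 1555, and only the first kind was named. Of those, 20351 were matched by gene identifier to RefSeq, which changed 0 symbols.

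Group means over all 12 arrays were fitted with limma 3.58.1 in R 4.3.3 (intensity trend), with two-sided Benjamini-Hochberg adjusted p over the 22626 probe sets and a threshold of 0.05. Errors are moderated SE or SD. A difference between 2 groups had a median 95% half-width of 0.239, limited by the number of arrays. P-values reflect how pools of mice varied, not single mice. The script was tested on simulated data. Genes with several probe sets were represented, where 1 was needed, by the brightest. All member probe sets are described; from the lists, genes past the threshold were named, with Nqo1 and Hmox1 as well known targets, and the 5 genes most correlated with Gclc. The quercetin contrast averaged over genotypes, the comparison of the ligase subunits and the correlation of Gclc with Osgin1 were added after seeing the data. The genes and lists were chosen with earlier results of these data known. Alternatives were quantile normalization, array weights, a low-signal filter, other variance priors, arrays of the compared groups alone, genes in place of probe sets, the pool number as a block and leaving out arrays.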

Additional observations from a re-analysis of the deposited data

How the results depend on the processing

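Of 130 values of called probe sets under alternatives, 110 kept the call, 20 lost it and 0 changed sign. Of 2059 values of uncalled ones, 13 gained a call. On the control diet, 1 probe set passed between genotypes, which became 2 with quantile normalization, 2 with array weights, 0 with the compared arrays alone and 0 with genes in place of probe sets. Leaving out 1 array gave 0 to 3, and leaving out both wild-type control pool 1 and POR-null control pool 3, chosen after seeing the data, gave 3. On the quercetin diet, 2 passed, which became 1 with genes and 0 to 2 without 1 array. Averaged over diets, 4 passed, which became 2 with genes and 3 to 5 without 1 array. Fewer features or arrays enter some of these fits; otherwise the cause was not tested. Gclm passed the averaged comparison with quantile normalization (-0.34, limma adjusted p = 0.0131). Over all probe sets the control-diet count was 262, against 30 with the compared arrays alone, 35 to 756 without 1 array and 1208 without both pools. The quercetin-diet count was 527, against 1052 with array weights and 127 to 389 without 1 array. The averaged count was 1714, against 991 to 2128 without 1 array, 1061 with genes and 2602 without both pools. For quercetin in wild-type liver 0 passed, against 151 without wild-type control pool 1. Fitting the pool number as a replicate block gave 1, 2 and 4 calls on the control diet, quercetin diet and average, and 0 for quercetin and interaction. Whether the numbers pair the samples is not settled. In their deviations 18 same-number pairs correlated at -0.18 to 0.24 (median 0.05, 5 over 0.1). The 36 other pairs gave -0.22 to 0.22 (median -0.01, 6 over 0.1).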

Other observations

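Hmox1, the heme oxygenase gene, did not pass the quercetin test in either genotype. It averaged 6.42 ± 0.17 in POR-null quercetin liver, against 7.04 ± 0.43 in POR-null control liver, and 6.53 ± 0.17 in wild-type quercetin liver, against 6.88 ± 0.58 in wild-type control liver (SD, n = 3 each). The POR-null difference was -0.61 ± 0.24 (limma adjusted p = 0.667).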
